A study of Mus musculus with 10 samples.

Results

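The CXC chemokine ligands Cxcl1, Cxcl2, Cxcl5, Cxcl9, Cxcl10, Cxcl11, Cxcl12, Cxcl13, Cxcl14 and Cxcl16 were taken by gene symbol from the table of gene counts, and make up 10 of its 55291 genes. Of these, 9 passed the filter on low counts and were tested, while Cxcl5 was too low. The 10 livers sequenced came from female mice 16 to 20 weeks old. All of them, controls included, carried a Cas9 transgene behind a Lox-Stop-Lox cassette and received an AAV8 virus that encodes a guide RNA and Cre under the hepatocyte promoter TBG, so every group had Cre and active Cas9 in hepatocytes. The guide was either a non-targeting control (NTC) or directed against Bap1 (sgBap1), a deubiquitinase. After 10 days the mice were injected with carbon tetrachloride (CCl4, diluted 1:9 in olive oil, 10 µL/g), which damages hepatocytes around the central vein, or with olive oil alone (Veh), and livers were taken 48 hours later. The vehicle groups (NTC-Veh and sgBap1-Veh) held 2 mice each, and the CCl4 groups (NTC-CCl4 and sgBap1-CCl4) 3 mice each. Since whole liver was sequenced, cells that the virus does not target are in every library, and fewer cells of a type and less RNA per cell cannot be told apart.

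CXC ligands are small secreted or membrane-bound proteins that direct leukocytes along a gradient through G protein-coupled receptors. Cxcl1, Cxcl2 and Cxcl5 carry an ELR motif, bind Cxcr2 and draw neutrophils. Cxcl9, Cxcl10 and Cxcl11 are interferon-inducible, bind Cxcr3 and draw activated T and NK cells. Cxcl12 binds Cxcr4 and retains progenitors and lymphocytes in tissues, Cxcl13 binds Cxcr5 and guides B cells, Cxcl14 is a homeostatic ligand of epithelia, and Cxcl16 is a transmembrane ligand of Cxcr6 that also takes up oxidised lipoprotein.

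The genes of the ELR ligands and of the interferon-inducible ligands lie in clusters on chromosome 5. On GRCm38, Cxcl1 (90891241 to 90893115, plus strand) and Cxcl2 (90903871 to 90905938, plus strand) are 10.8 kb apart. Cxcl9 (92321347 to 92328079, minus strand) is 18.6 kb from Cxcl10 (92346638 to 92348889, minus strand), which is 10.7 kb from Cxcl11 (92359544 to 92365485, minus strand). RefSeq promoters (GRCm38.p6) were matched for 7 of the 10 ligands. The 250 bases before the RefSeq start are printed for 2 pairs of neighbours, Cxcl1 with Cxcl2 and Cxcl9 with Cxcl10, and for Cxcl14, which rose with CCl4 under both guides. All run 5′ to 3′ on the strand of the gene, and capitals mark matches, on either strand, to a kappaB motif (GGG, any 3 bases, TTCC), an interferon-stimulated response element (ISRE; GAAA, any 2 bases, GAAA) or a gamma-activated site (GAS; TTC, any 3 bases, GAA).
Cxcl1 (chr5:90890995-90891244, plus strand): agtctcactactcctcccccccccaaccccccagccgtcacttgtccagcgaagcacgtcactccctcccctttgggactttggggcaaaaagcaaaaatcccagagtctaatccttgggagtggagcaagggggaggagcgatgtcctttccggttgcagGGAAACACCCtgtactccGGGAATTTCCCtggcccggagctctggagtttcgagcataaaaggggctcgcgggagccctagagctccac
Cxcl2 (chr5:90903649-90903898, plus strand): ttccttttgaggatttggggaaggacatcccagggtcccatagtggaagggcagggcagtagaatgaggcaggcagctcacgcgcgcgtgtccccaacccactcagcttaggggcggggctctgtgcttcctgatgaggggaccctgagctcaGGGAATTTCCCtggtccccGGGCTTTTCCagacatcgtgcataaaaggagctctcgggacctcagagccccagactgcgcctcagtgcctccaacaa
Cxcl9 (chr5:92328080-92328329, minus strand): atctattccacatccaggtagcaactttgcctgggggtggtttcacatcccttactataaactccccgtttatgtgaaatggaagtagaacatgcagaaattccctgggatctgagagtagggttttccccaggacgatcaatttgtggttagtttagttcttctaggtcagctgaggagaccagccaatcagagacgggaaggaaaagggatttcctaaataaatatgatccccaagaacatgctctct
Cxcl10 (chr5:92348890-92349139, minus strand): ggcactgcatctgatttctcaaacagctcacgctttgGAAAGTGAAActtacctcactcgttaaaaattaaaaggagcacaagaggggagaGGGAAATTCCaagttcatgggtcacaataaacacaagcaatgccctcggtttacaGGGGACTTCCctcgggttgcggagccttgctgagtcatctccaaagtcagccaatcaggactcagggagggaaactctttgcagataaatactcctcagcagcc
Cxcl14 (chr13:56296552-56296801, minus strand): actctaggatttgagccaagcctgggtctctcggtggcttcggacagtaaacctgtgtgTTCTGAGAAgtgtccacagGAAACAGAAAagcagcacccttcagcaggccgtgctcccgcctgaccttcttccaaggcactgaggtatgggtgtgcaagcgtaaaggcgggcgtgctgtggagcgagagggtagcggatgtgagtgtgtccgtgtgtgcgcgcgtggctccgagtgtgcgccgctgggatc
The capitals are kappaB matches in Cxcl1 and Cxcl2, where the run GGGAATTTCCC matches on both strands. In Cxcl10 the first run is an ISRE match and the others are kappaB matches, and in Cxcl14 the first is a GAS match and the other an ISRE match. A kappaB match was found in 3 of the 7 promoters, against 4.65% of 32851 RefSeq promoter windows of this length. An ISRE match was found in 2 of 7 (2.98% of all windows) and a GAS match in 1 of 7 (7.02%). No match was found for these letters in the windows of Cxcl9, Cxcl12 or Cxcl13, and such matches are a description of the letters only.

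The total estimated count per library was 3.30e+07 to 5.22e+07, and 3 counts corresponded to 0.0511 to 0.112 CPM (counts scaled to the library total, with TMM factors that align libraries on the bulk of their genes). Bap1 was at 34.8 CPM in both NTC-Veh mice and at 17.5 and 19.5 CPM in the sgBap1-Veh mice, and at 29.5 to 31.5 CPM in NTC-CCl4 against 17 to 21.8 CPM in sgBap1-CCl4. Hepatocyte markers summed to 64700 CPM or more in every library. The library of sgBap1-CCl4 replicate 2 stood apart, with adipocyte markers at 127 CPM against at most 15.4 CPM in the other mice. Adipoq and Plin1 of that list were at 2 counts or fewer in the other 9 mice, and their part in the results was not tested.

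Per kilobase of exon, Cxcl12 was the highest of the 10 CXC ligands in every liver, and its share was lower in every CCl4-treated than in every vehicle-treated liver. Exon length counts every base in an exon of any annotated transcript. For Cxcl1 (1875 bases), Cxcl2 (2068) and Cxcl10 (2252) it covers the whole gene, introns included, and for Cxcl12 it is 8176 bases. Ranks and shares depend on these lengths, which are not those of a single mRNA. In sgBap1-CCl4 replicate 1 the margin was small, with Cxcl12 at 25.97 and Cxcl10 at 23.99 CPM per kilobase. It was also small in NTC-CCl4 replicate 3, with Cxcl12 at 28.34 and Cxcl1 at 26.37 CPM per kilobase. Cxcl12 took 75.8% to 86.4% of the summed per-kilobase level of the 10 ligands in NTC-Veh livers and 61.4% to 62.9% in sgBap1-Veh livers. After CCl4 it took 25.9% to 35.8% with the NTC guide and 26.7% to 31.2% with sgBap1. In NTC-CCl4 livers the rest was mainly Cxcl1 (12.6% to 24.1%), Cxcl10 (13.5% to 21.2%), Cxcl9 (9.58% to 15.9%) and Cxcl14 (7.3% to 16.6%). Cxcl9 took 14.2% to 17.9% in sgBap1-Veh livers, the largest share after Cxcl12 in both, and 2.65% to 6.03% in NTC-Veh livers. These shares add to a fixed total, so a lower share of one ligand does not by itself show a lower level.

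**Figure D1:**
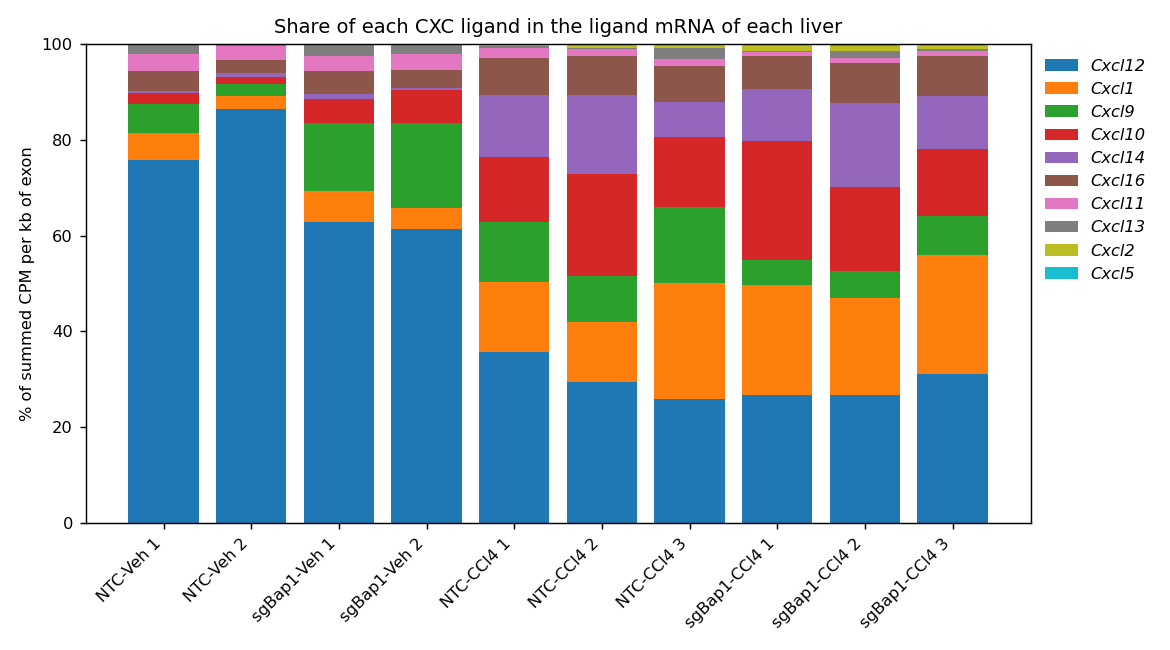
Stacked bars give, for each of the 10 livers, the percentage of the summed per-kilobase CPM of the 10 CXC ligands taken by each ligand, on an axis from 0 to 100%. Cxcl12 fills 61.4% to 86.4% of the bars of vehicle-treated mice and 25.9% to 35.8% of those of CCl4-treated mice.

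CCl4 was compared with vehicle under each guide to ask how the ligands respond to acute injury. With the NTC guide, 6 of the 9 tested ligands rose (Cxcl1, Cxcl2, Cxcl9, Cxcl10, Cxcl14 and Cxcl16) and 2 fell (Cxcl11 and Cxcl12), where 53.9% of all 17015 tested genes were called at an adjusted p under 0.05 by edgeR's quasi-likelihood test (27.4% higher and 26.6% lower). With sgBap1, 5 rose (Cxcl1, Cxcl2, Cxcl10, Cxcl14 and Cxcl16) and 3 fell (Cxcl9, Cxcl11 and Cxcl12), where 57% of all genes were called (29% higher and 28% lower). The mice of the 2 groups did not overlap for each of these ligands, as for 36.7% (higher) and 35% (lower) of all genes with NTC, and 37.3% and 34.9% with sgBap1. The median log2 fold change of the 9 ligands was 1.97 with NTC and 0.99 with sgBap1, beside 0.03 and 0.04 for all tested genes. The guides were compared within each treatment to ask what loss of Bap1 in hepatocytes does. In vehicle-treated livers no ligand passed the threshold, where 0.406% of genes did, and 3 ligands (Cxcl9, Cxcl10 and Cxcl16) had an unadjusted p under 0.05, as did 12.3% of genes. After CCl4, 1 ligand passed (Cxcl11, lower), where 0.329% of genes did, 0.129% as lower. No ligand passed in the test of the interaction, which asks whether the response to CCl4 differs between guides. Of all genes 0% passed there and 10.4% had an unadjusted p under 0.05, among them 3 ligands (Cxcl9, Cxcl10 and Cxcl11). The comparisons share mice and are therefore not independent of one another.

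**Figure D2:**
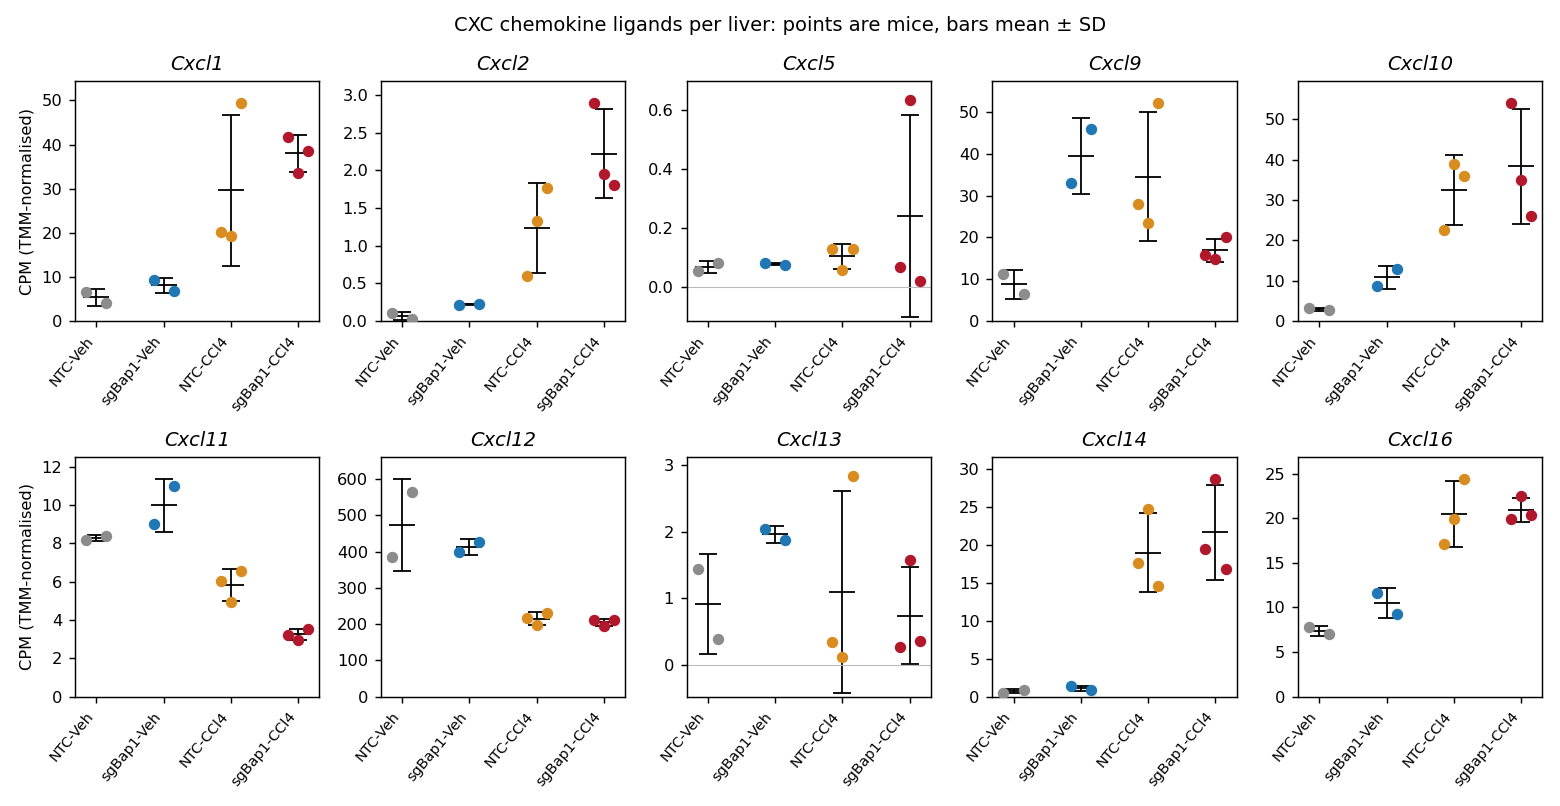
Each panel shows the level of one CXC ligand in CPM in the 4 groups, with 1 point per mouse, a horizontal bar at the mean and whiskers of 1 SD (n = 2 mice for vehicle, 3 for CCl4). Cxcl9 is at 33.2 and 45.9 CPM in sgBap1-Veh mice against 14.9 to 20.1 CPM in sgBap1-CCl4 mice, while Cxcl1, Cxcl2, Cxcl10, Cxcl14 and Cxcl16 are higher in every CCl4-treated than in every vehicle-treated mouse.

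Among the neutrophil-attracting ligands, Cxcl1 was at 6.64 and 4.05 CPM in NTC-Veh, 9.28 and 6.85 CPM in sgBap1-Veh, 20.3, 19.2 and 49.4 CPM in NTC-CCl4, and 41.8, 33.7 and 38.5 CPM in sgBap1-CCl4. All CCl4-treated mice lay above all vehicle-treated mice, and NTC-CCl4 replicate 3 was the highest of all. Cxcl1 rose with CCl4 by 2.47 on the log2 scale with NTC (SE 0.47, adjusted p = 0.00237) and by 2.23 with sgBap1 (SE 0.46, adjusted p = 0.00339). The guides differed by 0.60 in vehicle (95% interval -0.53 to 1.72, adjusted p = 0.713) and by 0.36 after CCl4 (-0.48 to 1.2, adjusted p = 0.701). Cxcl2, a close paralogue of Cxcl1, was scarce: 4 and 1 counts in NTC-Veh and 8 and 6 counts in sgBap1-Veh, against 28, 71 and 68 counts in NTC-CCl4 and 170, 114 and 85 counts in sgBap1-CCl4. It rose with CCl4 by 4.09 with NTC (95% interval 2.44 to 5.75, adjusted p = 0.000939), a value that rests on 5 counts in the NTC-Veh mice, and by 3.33 with sgBap1 (2.08 to 4.58, adjusted p = 0.000552). After CCl4 the sgBap1 mice, at 1.81 to 2.89 CPM, did not overlap the NTC mice at 0.597 to 1.77 CPM, but the difference of 0.87 (SE 0.33) had an adjusted p of 0.282, and groups did not overlap in this direction for 10.1% of genes. Of the exonic 50-base stretches of Cxcl2, 5.84% are shared with Cxcl3. Cxcl5, an ELR ligand of epithelia, had 1 to 6 counts in 9 mice and 37 counts in sgBap1-CCl4 replicate 2, the library with adipocyte markers.

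The receptor of these ligands and their inducers were followed in the same livers. Cxcr2, the neutrophil receptor for ELR ligands, rose with CCl4 by 2.46 with NTC (adjusted p = 3.18e-05) and by 2.52 with sgBap1 (adjusted p = 2.68e-05), from 0.337 to 0.511 CPM over the vehicle-treated mice to 1.98 to 2.62 CPM over the CCl4-treated mice. Neutrophil markers moved with them: 4 of the 5 tested rose under each guide, namely S100a8, S100a9, Retnlg and Csf3r. Of all genes, 27.4% rose with NTC and 29% with sgBap1. The summed level of the neutrophil markers went from 5.54 to 11.5 CPM in vehicle-treated mice to 25.9 to 36.5 CPM after CCl4. The defining marker Ly6g was at 9 counts or fewer in every mouse. Of the 12 tested NF-kB and cytokine genes that induce ELR ligands, 9 rose and 1 fell with NTC, and 7 rose and none fell with sgBap1. In either direction 53.9% and 57% of all genes were called, and the count with sgBap1 was near that share. By direction, 27.4% of all genes were higher and 26.6% lower with NTC, and 29% and 28% with sgBap1. Tnf, which encodes tumour necrosis factor, rose by 3.42 with NTC (adjusted p = 7.54e-05) and by 1.78 with sgBap1 (adjusted p = 0.00211). Tnfaip3, which restrains NF-kB, rose by 1.57 (adjusted p = 0.00034) and 1.34 (adjusted p = 0.000759). Nfkbia, which encodes an inhibitor that holds NF-kB in the cytoplasm, was the gene that fell with NTC, by 0.39 (adjusted p = 0.00245). It was at -0.14 with sgBap1 (adjusted p = 0.18), and is named after its value was seen. Nfkbiz, a nuclear cofactor of NF-kB, rose by 0.62 with NTC (adjusted p = 0.000855) and by 0.94 with sgBap1 (adjusted p = 5.54e-05). The part of neutrophil content in the levels of Cxcl1 and Cxcl2 was not tested.

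Of the interferon-inducible ligands, Cxcl9 rose with CCl4 in NTC mice and fell in sgBap1 mice. It was at 11.3 and 6.37 CPM in NTC-Veh, 33.2 and 45.9 CPM in sgBap1-Veh, 27.9, 23.5 and 52.2 CPM in NTC-CCl4, and 15.8, 14.9 and 20.1 CPM in sgBap1-CCl4. Both sgBap1-Veh mice lay above both NTC-Veh mice, as for 21.7% of all genes. All sgBap1-CCl4 mice lay below all NTC-CCl4 mice, as for 10.2% of genes, and below all sgBap1-Veh mice, as for 34.9%. Cxcl9 rose with CCl4 by 1.97 with NTC (SE 0.40, adjusted p = 0.00337) and fell by 1.22 with sgBap1 (SE 0.36, adjusted p = 0.0193). The latter call was lost without sgBap1-Veh replicate 2 (-0.97, adjusted p = 0.126), sgBap1-CCl4 replicate 1 (-1.17, adjusted p = 0.0535) or sgBap1-CCl4 replicate 2 (-1.14, adjusted p = 0.0696). Between guides, Cxcl9 differed by 2.16 in vehicle (4.47-fold, 95% interval 1.19 to 3.14, adjusted p = 0.0826) and by -1.03 after CCl4 (-1.78 to -0.27, adjusted p = 0.229). Without NTC-CCl4 replicate 3, which is in neither vehicle group but shares the estimate of the spread, the difference in vehicle passed (2.16, adjusted p = 0.0322), and that after CCl4 was between -1.24 and -0.60 when each mouse was left out in turn. The interaction was -3.19 (SE 0.54, 95% interval -4.42 to -1.96) with an adjusted p of 0.08. DESeq2's Wald test called Cxcl9 in all 3: 2.17 in vehicle (adjusted p = 1.44e-06), -1.03 after CCl4 (adjusted p = 0.0232) and -3.20 for the interaction (adjusted p = 4.52e-08). It also called a larger share of all genes there, 3.79%, 3.08% and 2.7%.

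Cxcl10 was at 3.19 and 2.63 CPM in NTC-Veh, 8.80 and 12.9 CPM in sgBap1-Veh, 22.6, 38.8 and 36.0 CPM in NTC-CCl4, and 54.0, 34.9 and 26.1 CPM in sgBap1-CCl4. The vehicle groups did not overlap each other or the CCl4 groups, whereas the CCl4 groups overlapped. Both sgBap1-Veh mice were above both NTC-Veh mice for 21.7% of all genes. Cxcl10 rose with CCl4 by 3.48 with NTC (11.2-fold, SE 0.41, adjusted p = 0.000142) and by 1.83 with sgBap1 (3.55-fold, SE 0.36, adjusted p = 0.00259). Between guides it differed by 1.89 in vehicle (3.71-fold, 95% interval 0.94 to 2.84, adjusted p = 0.104) and by 0.24 after CCl4 (-0.44 to 0.91, adjusted p = 0.765), and the interaction was -1.65 (SE 0.51, adjusted p = 0.286). DESeq2 called the difference in vehicle (1.90, adjusted p = 2.12e-05) and the interaction (-1.67, adjusted p = 0.0137). Exons of Cxcl10 overlap those of Art3 on the other strand over 5.91% of their length, and Art3 stayed between 0.789 and 3.22 CPM.

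Cxcl9 and Cxcl10, whose promoters are printed above, were also compared within each liver. The ratio of Cxcl9 to Cxcl10 per kilobase, chosen after the values were seen and given without a test, was 2.64 and 1.81 in NTC-Veh and 2.81 and 2.66 in sgBap1-Veh. It was 0.921, 0.452 and 1.08 in NTC-CCl4, and 0.219, 0.32 and 0.575 in sgBap1-CCl4. The ratio was lower in every CCl4-treated than in every vehicle-treated mouse, it was under 1 in every sgBap1-CCl4 mouse, and the CCl4 groups overlapped. Whether it lies over or under 1 depends on the exon lengths used, 3016 bases for Cxcl9 and 2252 bases for Cxcl10. The order of the mice does not.

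**Figure D3:**
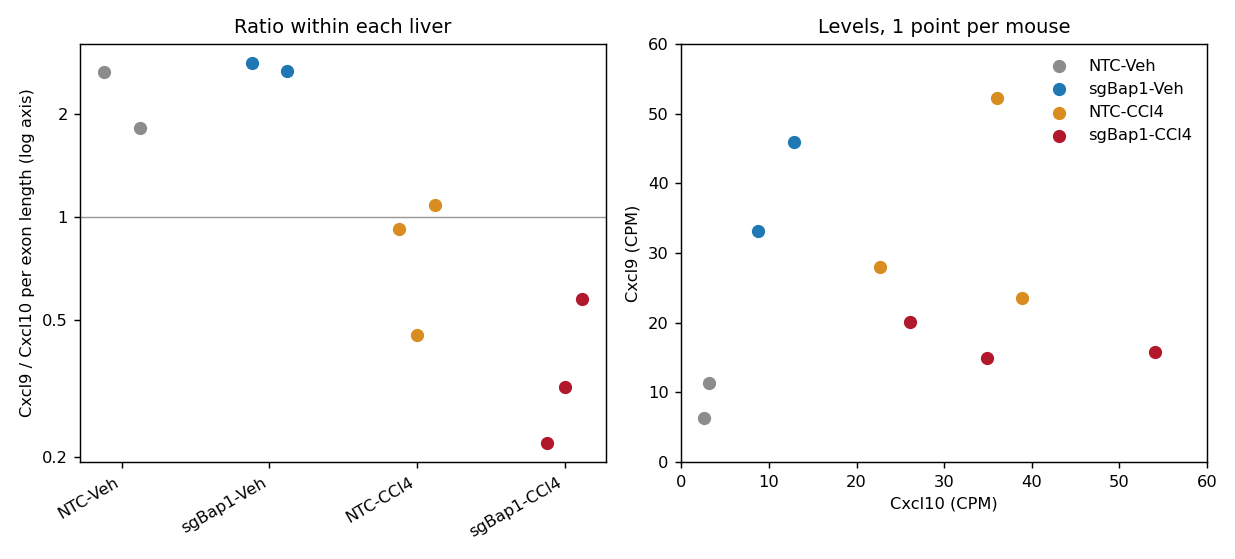
The left panel gives the ratio of Cxcl9 to Cxcl10 per kilobase of exon in each mouse on a log axis, and the right panel the level of Cxcl9 against that of Cxcl10 in CPM, with 1 point per mouse and colours for the 4 groups. The ratio lies between 1.81 and 2.81 in vehicle-treated mice and between 0.219 and 1.08 in CCl4-treated mice.

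Cxcl11, unlike Cxcl10, fell with CCl4 under both guides. It was at 8.17 and 8.40 CPM in NTC-Veh, 9.02 and 11 CPM in sgBap1-Veh, 6.03, 4.92 and 6.56 CPM in NTC-CCl4, and 3.24, 2.98 and 3.55 CPM in sgBap1-CCl4. The groups did not overlap in their order from sgBap1-CCl4 as the lowest to sgBap1-Veh as the highest. Among all genes, 10.2% were lower in every sgBap1-CCl4 than in every NTC-CCl4 mouse. A share of 21.7% was higher in every sgBap1-Veh than in every NTC-Veh mouse. Cxcl11 fell with CCl4 by 1.62 with sgBap1 (SE 0.16, adjusted p = 1.6e-05) and by 0.51 with NTC (SE 0.15, adjusted p = 0.0179). The fall with NTC was not called without NTC-Veh replicate 1 (-0.53, adjusted p = 0.0632), NTC-Veh replicate 2 (-0.49, adjusted p = 0.0857) or NTC-CCl4 replicate 2 (-0.40, adjusted p = 0.053). Scaled by library size alone, which moves the median of all genes by about 0.5 in this comparison, it was -0.03 (adjusted p = 0.867). After CCl4, Cxcl11 was lower with sgBap1 than with NTC by 0.84 on the log2 scale (SE 0.14, 95% interval of the difference -1.16 to -0.52), with an adjusted p of 0.0479. That call was lost without any one of the 10 mice (-0.95 to -0.75, adjusted p = 0.0574 to 0.216), and with the quasi-likelihood method of edgeR 3 (adjusted p = 0.0524), while DESeq2 made it (adjusted p = 0.000183). In vehicle the guides differed by 0.27 (-0.11 to 0.64, adjusted p = 0.604), and the interaction was -1.11 (SE 0.22, adjusted p = 0.0982). GENCODE vM21 lists mouse Cxcl11 as a polymorphic pseudogene, and 41.7% of its exonic length overlaps Gm2673 on the other strand, which had at most 2 counts in any mouse.

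**Figure D4:**
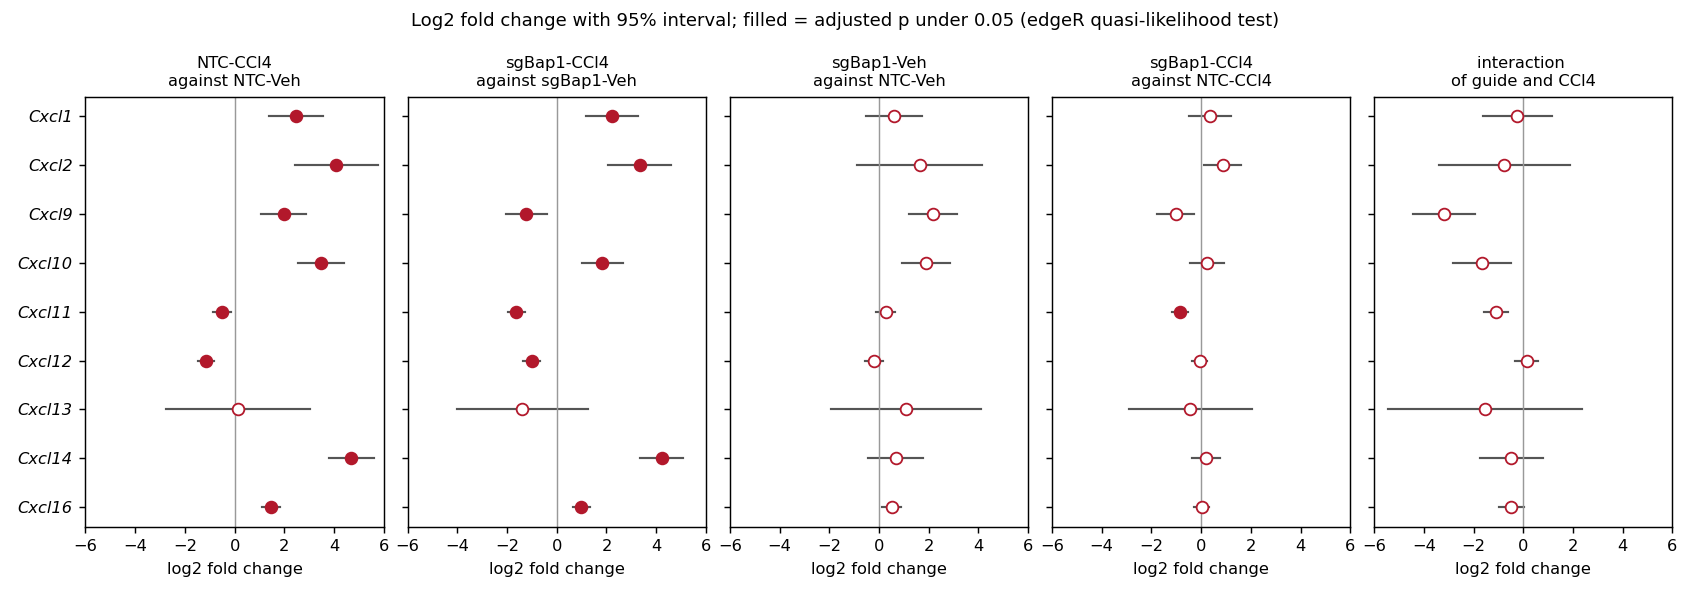
Points give the log2 fold change of each of the 9 tested ligands in the 4 comparisons and the interaction, with 95% intervals as lines, and filled points passed an adjusted p under 0.05 in edgeR's quasi-likelihood test. The point of Cxcl9 lies at 1.97 for CCl4 with NTC and at -1.22 with sgBap1, and those of Cxcl14 at 4.70 and 4.22.

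Cxcr3, the receptor of these ligands on T and NK cells, was not called in any comparison and was at 0.653 and 0.333 CPM in NTC-Veh, 1.70 and 1.09 CPM in sgBap1-Veh and 0.576 to 1.13 CPM in the CCl4-treated mice. Of the 9 tested T and NK cell markers, none passed between the guides, although all had a positive fold change in sgBap1-Veh (median log2 fold change 1.11, beside 0.02 for all genes). Their summed level was 2.88 to 6.53 CPM in NTC-Veh, 9.92 to 10.7 CPM in sgBap1-Veh, 6.61 to 12 CPM in NTC-CCl4 and 6.18 to 9.57 CPM in sgBap1-CCl4. The vehicle groups did not overlap here, nor for Cxcl9 and Cxcl10, and 21.7% of all genes had sgBap1-Veh above NTC-Veh without overlap. Kupffer cell markers, from the resident macrophages of the liver, summed to 161 to 268 CPM in NTC-Veh and 340 to 515 CPM in sgBap1-Veh. All 6 had a positive fold change there (median log2 fold change 0.94, beside 0.02 for all genes). None was called, where 0.406% of all genes were. With CCl4 they summed to 455 to 885 CPM in NTC mice, where 3 of 6 rose (Marco, Cd5l and Adgre1), beside 27.4% of all genes. The mean of Marco went from 14.9 to 251 CPM there and that of Cd5l from 85.4 to 248 CPM. Clec4f (-0.25, adjusted p = 0.418), Vsig4 (0.67, adjusted p = 0.0755) and Timd4 (0.53, adjusted p = 0.303) were not called with NTC. In sgBap1 mice the sum was 437 to 638 CPM with CCl4. There 1 of 6 rose, Marco by 2.76 (adjusted p = 0.00875). The 2 that fell were Clec4f by 1.29 (adjusted p = 0.00155) and Timd4 by 1.13 (adjusted p = 0.0366). Beside them, 29% of all genes were higher and 28% lower. The part of these cells in the levels of Cxcl9 and Cxcl10 was not tested. Ifng, the interferon that induces Cxcl9, had at most 6 counts in any mouse and was not tested. Of the 10 tested genes of its signalling axis, 6 rose and none fell with CCl4 in NTC mice, and 5 rose and 1 fell in sgBap1 mice. Counted in either direction, this was near the shares of all genes called (53.9% and 57%). By direction, 27.4% of all genes were higher and 26.6% lower with NTC, and 29% and 28% with sgBap1. Irf1, an interferon-induced transcription factor, fell by 0.68 with sgBap1 (adjusted p = 0.00082). Ifngr1, a chain of the receptor, rose under both guides, by 1.38 (adjusted p = 6.85e-06) and 1.35 (adjusted p = 6.93e-06).

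Cxcl12, the highest of the ligands in CPM as well, was at 384 and 564 CPM in NTC-Veh, 398 and 428 CPM in sgBap1-Veh, 217, 196 and 232 CPM in NTC-CCl4, and 212, 195 and 210 CPM in sgBap1-CCl4. All CCl4-treated mice were below all vehicle-treated mice, and within each treatment the guides overlapped. Cxcl12 fell with CCl4 by 1.14 with NTC (2.21-fold, SE 0.15, adjusted p = 0.000121) and by 1.01 with sgBap1 (2.01-fold, SE 0.15, adjusted p = 0.000264). The interval of the difference between guides was -0.57 to 0.17 in vehicle and -0.37 to 0.24 after CCl4. Its receptor Cxcr4, present on most leukocytes, rose by 2.08 with NTC (adjusted p = 4.19e-05) and by 1.91 with sgBap1 (adjusted p = 4.77e-05). Dpp4, a peptidase that cleaves and inactivates Cxcl12 and other CXC ligands, fell by 0.96 (adjusted p = 0.000172) and 1.49 (adjusted p = 9.76e-06). Among markers of cell types known to make Cxcl12, 4 of 6 stellate cell markers rose with CCl4 in NTC mice and 3 of 6 in sgBap1 mice, and of 5 sinusoidal endothelial markers 2 rose with NTC, and 2 rose and 2 fell with sgBap1. Of the hepatocyte markers 5 of 6 fell with NTC and 2 of 6 with sgBap1. Of all genes, 27.4% were higher and 26.6% lower with NTC, and 29% and 28% with sgBap1. The 2 of 6 hepatocyte markers that fell with sgBap1 are near that share. The part of any of these cell types in the level of Cxcl12 was not tested.

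Cxcl14 was low in vehicle-treated livers and rose with CCl4 under both guides. It had 19 and 34 counts in NTC-Veh and 51 and 24 counts in sgBap1-Veh, against 828, 1312 and 560 counts in NTC-CCl4 and 1145, 1678 and 790 counts in sgBap1-CCl4. The lowest CCl4-treated mouse, at 14.6 CPM, was above the highest vehicle-treated mouse, at 1.37 CPM. Cxcl14 rose by 4.70 with NTC (26-fold, SE 0.40, adjusted p = 1.55e-05) and by 4.22 with sgBap1 (18.7-fold, SE 0.39, adjusted p = 2e-05). Between guides it differed by 0.67 in vehicle (95% interval -0.45 to 1.79) and by 0.19 after CCl4 (-0.38 to 0.76). Cxcl13, the B cell ligand, varied widely within groups and was at 1.44 and 0.388 CPM in NTC-Veh, 2.05 and 1.87 CPM in sgBap1-Veh, 0.341, 0.113 and 2.84 CPM in NTC-CCl4, and 0.272, 1.57 and 0.361 CPM in sgBap1-CCl4. Both sgBap1-Veh mice lay above the NTC-Veh and the sgBap1-CCl4 mice, as for 21.7% and 34.9% of all genes. The NTC-CCl4 mice overlapped every other group. No comparison of Cxcl13 was called: CCl4 with sgBap1 gave -1.38 (95% interval -4.01 to 1.24, adjusted p = 0.331), and the interval of the interaction ran from -5.43 to 2.38. Its receptor Cxcr5 was not called in any comparison either. Of 4 tested B cell markers 3 rose with CCl4 in NTC mice, beside 27.4% of all genes. With sgBap1 none was called (median log2 fold change -0.17), beside 57% of all genes. Mesothelial markers, from the surface lining of the liver, also varied within groups, with summed levels of 0.49 and 14.6 CPM in the NTC-Veh mice and 4.01 to 18 CPM in the CCl4-treated mice. In each vehicle group the mouse with the higher Cxcl13 had the lower sum. In each CCl4 group the mouse highest in Cxcl13 had the highest sum. The part of mesothelial cells in Cxcl13 was not tested.

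Cxcl16, which is shed from the membrane by Adam10 and Adam17, was at 7.76 and 6.98 CPM in NTC-Veh, 11.7 and 9.32 CPM in sgBap1-Veh, 17.1, 19.9 and 24.4 CPM in NTC-CCl4, and 19.9, 22.5 and 20.4 CPM in sgBap1-CCl4. The CCl4 groups lay above the vehicle groups and overlapped each other, and the sgBap1-Veh mice lay above the NTC-Veh mice. It rose by 1.47 with NTC (2.77-fold, SE 0.16, adjusted p = 3.94e-05) and by 0.99 with sgBap1 (1.99-fold, SE 0.16, adjusted p = 0.000419). In vehicle the guides differed by 0.51 (95% interval 0.12 to 0.90, adjusted p = 0.254), and 21.7% of all genes had sgBap1-Veh mice above NTC-Veh mice without overlap. After CCl4 the interval was -0.27 to 0.33. Both sheddases rose with CCl4, Adam10 by 1.06 with NTC (adjusted p = 2.11e-05) and 1.08 with sgBap1 (adjusted p = 1.75e-05), and Adam17 by 0.89 (adjusted p = 0.000435) and 0.79 (adjusted p = 0.000855). The receptor Cxcr6, found on NKT and resident T cells, was at 0.898 and 0.249 CPM in NTC-Veh, 2.18 and 1.72 CPM in sgBap1-Veh, and 0.582 to 1.22 CPM in the CCl4-treated mice. It fell with CCl4 by 1.5 in sgBap1 mice (adjusted p = 0.00815), and the difference with NTC was 0.60 (adjusted p = 0.316). Exons of Cxcl16 overlap those of Zmynd15 on the other strand over 18.3% of their length, and Zmynd15 stayed between 4.95 and 8.99 CPM.

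Of the other CXC ligands, 4 of 5 listed genes were tested and 3 rose with CCl4 under each guide, beside 27.4% (NTC) and 29% (sgBap1) of all genes. Pf4, a platelet chemokine also made by macrophages, rose by 3.44 (adjusted p = 7.41e-05) with NTC and by 3.17 (adjusted p = 8.33e-05) with sgBap1. Ppbp, which encodes another platelet chemokine, rose by 1.86 (adjusted p = 0.000707) and 0.97 (adjusted p = 0.0203). Cxcl17, a mucosal ligand, averaged 0.117 ± 0.0203 CPM (SD, n = 3) in NTC-CCl4 and 0.199 ± 0.0263 CPM (SD, n = 3) in sgBap1-CCl4 and was at 0 in the vehicle-treated mice. Its calls rest on few reads, with 6, 5 and 5 counts in NTC-CCl4 and 13, 12 and 8 counts in sgBap1-CCl4. All 6 markers of monocyte-derived macrophages rose under each guide, beside the same shares of all genes. Their summed level went from 6.59 to 11.2 CPM in vehicle-treated mice to 144 to 211 CPM after CCl4, as Cxcl1, Cxcl2, Cxcl10, Cxcl14 and Cxcl16 rose. The part of these macrophages in the levels of these ligands was not tested.

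The genes whose log2 CPM followed each ligand most closely over the 10 mice were searched among the 12027 tested genes that averaged 100 counts or more. For Cxcl9 these were Gbp5 (Pearson r = 0.958), Rasgrp1 (0.911) and Gbp2 (0.905), where Gbp2 and Gbp5 encode interferon-induced guanylate-binding proteins. For Cxcl10 they were Mpeg1 (0.976), Tlr2 (0.975) and Lpxn (0.974), which macrophages express. For Cxcl14 they were Cd63 (0.996), Fblim1 (0.995) and S100a11 (0.995), and for Cxcl16 Gm49339 (0.996), Cd44 (0.994) and Ripk3 (0.994). Cxcl1 was closest to Arfgap3 (0.985), Bhlha15 (0.983) and Tpp2 (0.981), Cxcl11 to 9530082P21Rik (0.983) and Nampt (0.971), and Cxcl12 to Zhx1 (0.988), Wwp1 (0.987) and Rgp1 (0.987). The 10 mice fall into vehicle and CCl4 groups and share libraries and scaling, so these values are given as a description.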

How the data were processed

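Bulk polyA RNA of 10 mouse livers was analysed. The authors aligned reads with STAR 2.7.6a to GRCm38 and used Salmon 1.4.0 with GENCODE vM25 for quantification, and the deposited table holds estimated counts (expected counts) per gene symbol without normalization. All 10 columns were matched to mice by label. After rounding to whole counts, edgeR 4.0.16 (R 4.3.3) was used with filterByExpr (17015 genes), TMM, 1 model of the 4 groups, glmQLFit (robust) and a two-sided quasi-likelihood test, adjusted by Benjamini-Hochberg over all tested genes at 0.05. Replicates were distinct mice; p-values measure the spread between them.

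The quasi-likelihood method of edgeR 4 was chosen over that of edgeR 3, the default of glmQLFit in this version and the method of the first run, after the counts of calls of both had been seen, to match earlier processing of these data. For DESeq2 1.42.0, an alternative, independent filtering at 0.05 was run first and its default level adopted afterwards, also after the counts were seen. Values under the settings replaced are given in the closing section. The other alternatives were DESeq2 size factors, library size alone, no filter, a mean of at least 10 counts, a replicate block, leaving out each mouse in turn, and fitting only the 2 groups compared. The procedure was tried on simulated data with changes in the sgBap1-Veh group alone, so only the comparison of guides in vehicle was checked.

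The ligands and gene lists were chosen with earlier results of these data known. Named genes are all 10 ligands, genes of the lists with an adjusted p under 0.05 (at most 4 of smallest p per list and comparison) or that touch a ligand's result, and the 3 genes closest to each ligand with a mean of at least 100 counts. Some genes under this rule are not reported here. Positions come from GENCODE vM21 and promoters from RefSeq. Intervals are 95%, and the floor of 3 counts covers counting error only.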

Additional observations from a re-analysis of the deposited data

Results flagged for a closer look

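Cxcl9 moved in opposite directions under the contrasts of the design. Every sgBap1-Veh mouse was above every NTC-Veh mouse and every sgBap1-CCl4 mouse below every NTC-CCl4 mouse, and CCl4 raised every NTC mouse above and put every sgBap1 mouse below its vehicle group. The interaction on the log2 scale was -3.19 for either contrast, with an adjusted p of 0.08 by edgeR's quasi-likelihood test, which did not pass the threshold. Cxcl11 was likewise higher in every sgBap1-Veh than in every NTC-Veh mouse and lower in every sgBap1-CCl4 than in every NTC-CCl4 mouse, with an interaction of -1.11 and an adjusted p of 0.0982, which did not pass either. With 2 vehicle-treated mice per guide, 21.7% of all genes had the vehicle groups apart in this direction, and 10.2% had the CCl4 groups apart in the other.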

How the results depend on the processing

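The number of ligands called for CCl4 was 7 or 8 of 9 in every alternative under either guide. Comparisons between guides depended on the test. In vehicle the count went from 0 to 2 (Cxcl9 and Cxcl10) with DESeq2's Wald test, after CCl4 from 1 to 2 (Cxcl9 and Cxcl11), and for the interaction from 0 to 3 (Cxcl9, Cxcl10 and Cxcl11). These counts were 2, 2 and 3 with independent filtering at 0.05 too. After CCl4 the count was 0 with the quasi-likelihood method of edgeR 3, with only the 2 groups compared, and in each of the 10 fits without a mouse (0 to 0), while in vehicle it ranged from 0 to 1 over those fits, and the cause was not tested. The fall of Cxcl9 with CCl4 in sgBap1 mice was not called with library size alone (-0.74, adjusted p = 0.088) or no filter (-1.19, adjusted p = 0.0567, with more genes tested). Library size alone moved the median of all genes by about 0.5 and the share of higher calls with CCl4 from 50.8% to 80.5% (NTC) and from 50.9% to 78.3% (sgBap1).

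Mice with the same replicate number did not deviate together (correlations -0.15 to 0.1 over 13 pairs, 0 of them over 0.1), so the numbers were not taken to pair mice. With the replicate block, the count after CCl4 was 0, all genes called in vehicle fell from 69 to 1, and Cxcl13 changed sign, to -0.69 for CCl4 with NTC and to 0.01 between guides after CCl4.

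Leaving out 1 mouse changed the sign only of values that were not called. The ranges were -0.45 to 0.10 for Cxcl12 between guides in vehicle, -0.17 to 0.39 for the Cxcl12 interaction and -0.64 to 0.35 for the Cxcl1 interaction. For Cxcl13 they were -2.04 to 1.37 (CCl4 with NTC), -1.68 to 1.75 (guides after CCl4) and -2.78 to 0.65 (interaction). Between guides after CCl4 they were -0.09 to 0.44 for Cxcl10, -0.06 to 0.43 for Cxcl14 and -0.08 to 0.18 for Cxcl16. Groups of 2 mice limit the vehicle comparisons, and Cxcl2 and Cxcl5 are limited by their counts.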
